A study of Mus musculus with 2 samples.

Results

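The 10 genes described here belong to the transforming growth factor beta (TGF-beta) pathway of mouse aorta. They were chosen by name from the 14714 genes of a single-cell count table. They are the ligand genes Tgfb1, Tgfb2 and Tgfb3, the latency gene Ltbp1, the receptor genes Tgfbr1, Tgfbr2 and Tgfbr3, the signal carrier Smad3, and the feedback genes Smad7 and Skil. All 10 had at least 20 UMIs (unique molecular identifiers, each marking 1 captured transcript) over both libraries.

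The aortas came from mice on a western diet for 12 weeks and were digested with enzymes before droplet sequencing. There were 2 libraries, 1 per genotype. One was Apoe-/-, which develops atherosclerosis on this diet. The other was EC-iDKO/Apoe-/-, whose name stands for an inducible double knockout in endothelial cells, on the Apoe-/- background that both share. Whether either gene of the pair was also missing outside endothelial cells is not shown by the values here. It is called the double knockout below. From knowledge of the line, the deleted pair is Epn1 and Epn2, which encode the endocytic adaptors called epsins, and the study asked about endothelial-to-mesenchymal transition. The sources used here name neither the Cre driver nor the ages of the mice, nor how many mice went into each library.

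TGF-beta ligands are made as precursors and secreted in a latent complex, in which Ltbp proteins tie the ligand to the matrix until it is released. The freed ligand joins the type II and type I receptors, and the type I receptor phosphorylates Smad2 and Smad3, which enter the nucleus with Smad4. In the arterial wall the pathway is known for driving matrix and contractile genes in smooth muscle, and in endothelium for its part in endothelial-to-mesenchymal transition.

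The libraries held 2428 Apoe-/- and 5489 double knockout cells with 13304762 and 6853185 UMIs. The median was 3770 UMIs per Apoe-/- cell and 769 per double knockout cell. At least 1000 UMIs were reached by 94.6% and 34.0% of the cells. There were 5 barcode sequences seen in both libraries. Levels are UMIs scaled to a total of 1000000 (CPM) and summed over the cells of a population, with exact 95% intervals that cover counting error only. With 1 library per genotype there is no replicate check and no p-value, so "higher" and "lower" describe these 2 libraries. A gene was called where the level in the double knockout divided by that in the Apoe-/- library was at least 1.5 in either direction and its interval did not hold 1, among genes with at least 20 UMIs in the population. In the deposited endothelial (EC) class, Epn1 had 14 and 6 UMIs and Epn2 had 23 and 32. In the smooth muscle population defined below, Epn1 had 251 and 150 UMIs and Epn2 had 698 and 612. A 3′ tag lies downstream of most exons and would be read whether or not one of them was deleted, so these counts are no check of the deletion.

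The main change among the ligands was in Tgfb1. Over all cells it was the only one of the 10 genes called higher in the double knockout, and Tgfb3 the only one called lower. The same rule called 9.53% of 13257 genes higher and 13.1% lower. The median log2 ratio was 0.17 over the 10 genes and -0.00 over all genes tested. The smooth muscle population, 1516 and 4348 cells of the deposited SMC class without the adipocyte-marked cluster 15, gave the same calls: Tgfb1 higher and Tgfb3 lower, against 9.87% and 7.67% of 11941 genes. There the median log2 ratio was 0.27 over the 10 genes and 0.03 over all genes.

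**Figure D1:**
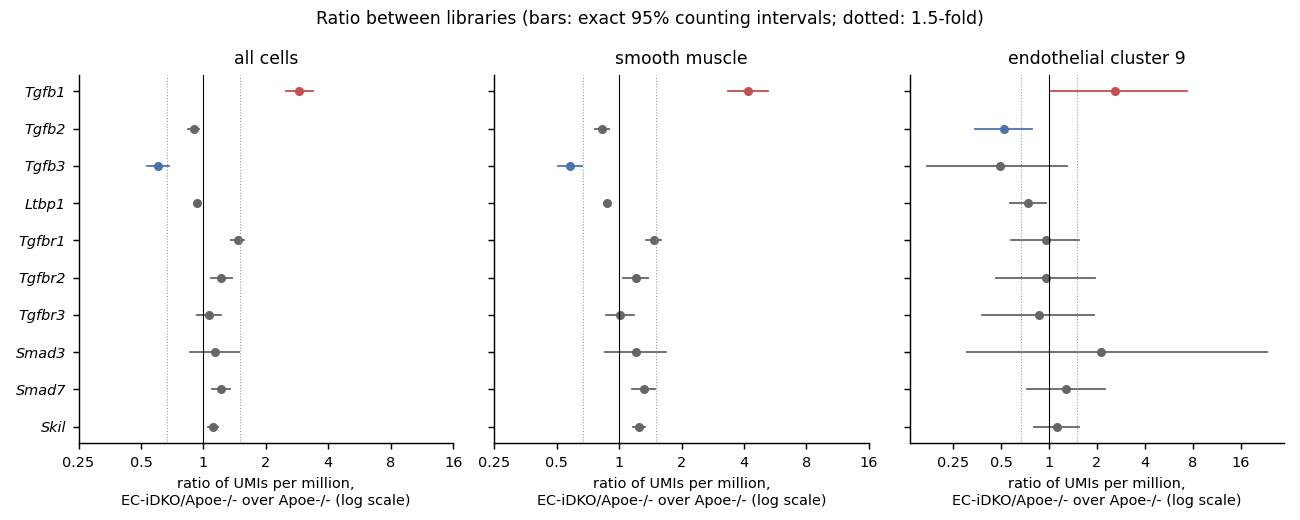
Double knockout to Apoe-/- ratio of the 10 genes on a log axis, in all cells, smooth muscle and the endothelial cells of cluster 9. Points are ratios, bars exact 95% counting intervals, red and blue mark called genes and grey the rest. Tgfb1 stands at 2.90, 4.17 and 2.58 in the 3 panels, and Tgfb3 at 0.60 and 0.58 in the first 2.

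Tgfb1 encodes the ligand that platelets, macrophages and many stromal cells make, and it lies on chromosome 7 from 25687002 to 25705077 of GRCm38, forward strand. Its promoter and those of Tgfb2 and Ltbp1 are shown because Tgfb1 stood highest in the macrophage-marked cluster 13 of the Apoe-/- library, where Tgfb2 and Ltbp1 stood lowest. RefSeq (GRCm38.p6) had promoter entries for 6 of the 10 genes. Each window runs from 250 bases before to 50 bases after the start given by the promoter entry, 5′ to 3′ on the strand of the gene. Ltbp1 had 2 promoter entries, of which 1 is shown, and its start is not the annotated gene start given below. Capitals mark matches to 5 motifs on either strand. The GC box, which Sp1 family factors bind, was searched as GGGCGG. The TATA box, where the basal transcription machinery can dock, was searched as TATAAA. The cyclic AMP response element was searched as TGACGTCA, and the AP-1 site of Jun and Fos proteins, which differs from it in length, as TGANTCA. The CAGA box, a motif that Smad3 is known to bind, was searched by its core CAGACA.

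Tgfb1, chr7:25686752-25687051, forward strand: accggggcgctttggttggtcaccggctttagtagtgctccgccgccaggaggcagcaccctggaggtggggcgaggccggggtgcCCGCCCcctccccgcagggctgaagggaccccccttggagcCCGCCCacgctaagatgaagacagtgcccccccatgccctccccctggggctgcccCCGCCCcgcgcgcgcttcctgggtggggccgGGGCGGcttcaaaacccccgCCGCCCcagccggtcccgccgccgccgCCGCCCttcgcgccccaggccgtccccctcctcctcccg

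Tgfb2, chr1:186705940-186706239, reverse strand: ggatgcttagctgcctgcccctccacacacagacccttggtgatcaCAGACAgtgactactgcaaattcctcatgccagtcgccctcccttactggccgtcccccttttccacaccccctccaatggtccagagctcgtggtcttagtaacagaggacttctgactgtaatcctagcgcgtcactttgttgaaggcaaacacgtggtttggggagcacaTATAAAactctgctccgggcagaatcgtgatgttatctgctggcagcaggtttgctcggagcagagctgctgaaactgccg

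Ltbp1, chr17:75005279-75005578, forward strand: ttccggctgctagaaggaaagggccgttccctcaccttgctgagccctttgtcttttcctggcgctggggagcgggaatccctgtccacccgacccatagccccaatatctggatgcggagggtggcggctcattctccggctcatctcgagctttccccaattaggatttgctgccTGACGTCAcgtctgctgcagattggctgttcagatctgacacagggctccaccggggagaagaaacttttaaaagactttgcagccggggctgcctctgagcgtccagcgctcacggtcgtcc

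The Tgfb1 window was 77% G or C and held 6 GC boxes and none of the other 4 motifs. The Tgfb2 window was 54.3% G or C, with 1 TATA box and 1 CAGACA, and the Ltbp1 window 58.7%, with 1 cyclic AMP element. Of 32851 promoter windows of the same length, with a median of 52.7% G or C, 35.7% held a GC box, 13.6% the TATA letters, 1.79% the cyclic AMP element, 7.81% the AP-1 site and 21.0% CAGACA. A match describes the letters and is no measure of binding.

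Over all cells, Tgfb1 stood at 21.3 CPM (283 UMIs) in the Apoe-/- library and 61.7 CPM (423 UMIs) in the double knockout, a ratio of 2.90 (2.49 to 3.39). In smooth muscle it stood at 12.7 CPM (109 UMIs) and 53.1 CPM (291 UMIs), a ratio of 4.17 (3.33 to 5.25). Of the 11941 genes tested there, 58 had a higher ratio. The UMIs were spread over many cells, since 105 Apoe-/- and 269 double knockout smooth muscle cells carried any and no cell carried more than 2.

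The Tgfb1 difference ran through the smooth muscle clusters. In the 11 of them with at least 50 cells in each library, Tgfb1 lay between 2.59 and 19.6 CPM in the Apoe-/- library, with a median of 11.2. It lay between 35.6 and 81.3 CPM in the double knockout, with a median of 53.1. It was higher in the double knockout in 11 of 11 clusters and called in all 9 that had 20 UMIs. The 11 clusters come from the same 2 libraries and are not replicates. The share of all genes with 1 direction in all 11 was not counted, here or for the genes below. Over all pairs of a gene and 1 of these 11 clusters, 69209 in number, the rule called 7.83% higher and 6.52% lower. Over all 18 clusters of that size, of every class, Tgfb1 was higher in 17. The exception was the adipocyte-marked cluster 15, where it stood at 38.1 and 37.6 CPM on 7 and 4 UMIs.

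The size of the Tgfb1 difference depended on which cells were set side by side. Among Apoe-/- smooth muscle cells the level was lower in deeper cells: 24.7 CPM at 1000 to 2000 UMIs, 19.1 at 2000 to 4000, 15.4 at 4000 to 8000 and 9.14 in the 427 cells above that. In double knockout cells of the first 3 of these bins it was 52.1, 55.3 and 44.8 CPM, and only 1 double knockout cell lay above 8000 UMIs. Within bins the ratio was 2.11 (0.99 to 5.14), 2.89 (1.77 to 4.94) and 2.90 (1.79 to 4.69), each smaller than the pooled 4.17, which all 3 intervals hold. In cells under 1000 UMIs, 95 Apoe-/- cells gave 0 Tgfb1 UMIs, with an exact interval of 0 to 54.7 CPM. The 2848 double knockout cells gave 55.2 CPM (45.2 to 66.8), and the exact interval of the ratio began at 0.99, just below 1. With each cell thinned to 1000 UMIs, 1.34% (0.81 to 2.08) of 1421 Apoe-/- and 5.00% (3.95 to 6.23) of 1500 double knockout smooth muscle cells carried a Tgfb1 UMI, where 95 and 2848 shallower cells were left out. Before thinning the shares were 6.93% and 6.19%.

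**Figure D2:**
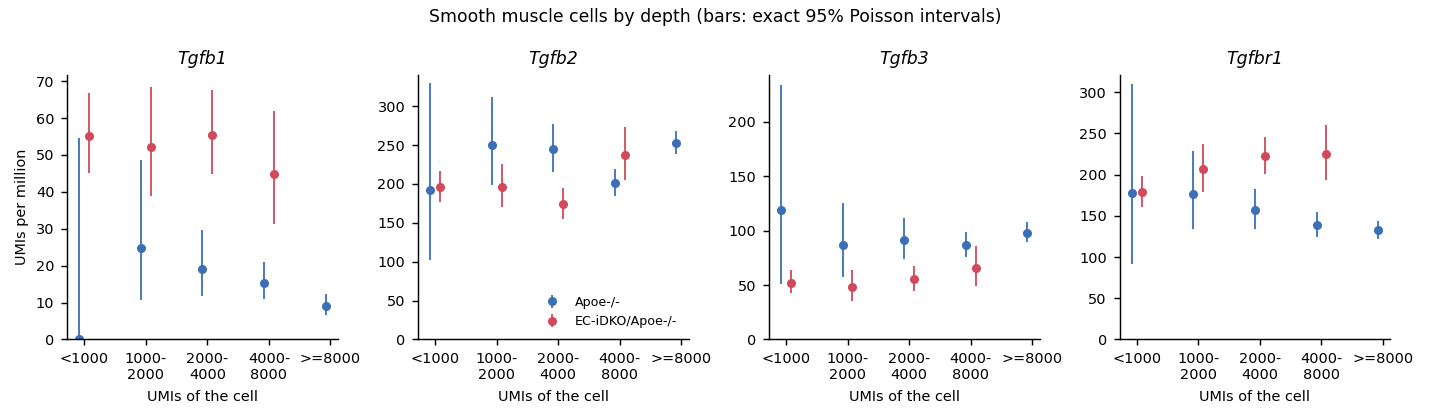
Level (CPM) of Tgfb1, Tgfb2, Tgfb3 and Tgfbr1 in smooth muscle cells, by the UMI total of the cell, for both libraries. Bars are exact 95% Poisson intervals, and a bin is drawn for a library where it held at least 20 of its cells. Tgfb1 is higher in the double knockout in each bin that both libraries fill, with 44.8 to 55.3 against 0 to 24.7.

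The cluster with the most Tgfb1 was the macrophage-marked cluster 13 in both libraries, at 47.4 CPM (41 UMIs) in the Apoe-/- and 184 CPM (9 UMIs) in the double knockout. In the Apoe-/- library its next neighbour, cluster 8 of the modEC class, stood at 43.6 CPM, and 4 of the other 17 clusters did not differ from the top beyond counting error. In the double knockout, cluster 19 of the EC class stood level with cluster 13, at 184 CPM on 19 UMIs. It had 9 Apoe-/- cells and was not compared. No neighbouring pair in either order differed beyond its counting error.

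The largest called Tgfb1 ratio outside smooth muscle was in cluster 14, which holds 149 of the 154 cells of the deposited fibroblast class. Its pericyte markers summed to 4476 and 2103 CPM and its contractile smooth muscle markers to 25580 and 27803 CPM. Smooth muscle cluster 5 had more of the pericyte markers, at 7002 and 6092 CPM. In cluster 14 Tgfb1 stood at 20.4 CPM (11 UMIs) in the Apoe-/- and 165 CPM (21 UMIs) in the double knockout, a ratio of 8.08 (3.72 to 18.6). In cluster 8 the values were 43.6 and 58.6 CPM, a ratio of 1.34 (0.66 to 2.51) that was not called.

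Markers of other cell types differed between the libraries along with Tgfb1. The 11 macrophage markers summed to 1784 CPM over all Apoe-/- cells and 60.0 CPM in the double knockout, where Adgre1 was at 0, and in smooth muscle to 103 and 15.5 CPM. Erythroid markers summed to 3.85 and 61.8 CPM in smooth muscle. Adipocyte markers summed to 166 and 1181 CPM over all cells and to 171 and 264 in smooth muscle, and endothelial markers to 213 and 505 CPM over all cells and to 133 and 143 in smooth muscle. The part of these cell types in the result was not tested.

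Tgfb3 encodes the ligand best known from palate development. The gene lies on chromosome 12 from 86056745 to 86079041, reverse strand. Over all cells it stood at 83.3 CPM (1108 UMIs) in the Apoe-/- and 50.3 CPM (345 UMIs) in the double knockout, a ratio of 0.60 (0.53 to 0.68). In smooth muscle it stood at 93.6 CPM (802 UMIs) and 54.5 CPM (299 UMIs), a ratio of 0.58 (0.51 to 0.67), and 745 of 11941 genes had a lower one. It was lower in the double knockout in 11 of 11 smooth muscle clusters and called in 6 of them.

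The smooth muscle Tgfb3 ratio lay below 1 in the 4 depth bins under 8000 UMIs, above which the double knockout had 1 cell. It was 0.44 (0.21 to 1.05) in cells under 1000 UMIs, 0.56 (0.34 to 0.92) at 1000 to 2000, 0.60 (0.45 to 0.81) at 2000 to 4000 and 0.76 (0.55 to 1.03) at 4000 to 8000. With each cell thinned to 1000 UMIs it was 0.78 (0.58 to 1.05), which ended the call, and 6.69% and 5.67% of cells carried a UMI. The annotated 3′ end of Tgfb3 overlaps Ttll5, a tubulin ligase gene. Ttll5 stood at 13.3 and 10.2 CPM in smooth muscle, a ratio of 0.77 (0.55 to 1.07). Whether the counting used strand is not stated in the sources used here, so Tgfb3 UMIs near that end are uncertain.

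Many clusters held similar levels of Tgfb3. Its highest Apoe-/- level was 119 CPM in smooth muscle cluster 11, and 9 of the other 17 clusters did not differ from it beyond counting error. The lowest was 32.4 CPM in cluster 13, with a top to bottom ratio of 3.67 (2.40 to 5.79). In cluster 14 it was called lower, with 100 CPM (54 UMIs) and 23.5 CPM (3 UMIs), a ratio of 0.24 (0.05 to 0.72).

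Tgfb2, whose loss of function causes aortic aneurysm in people, lies on chromosome 1 from 186622792 to 186705989, reverse strand. It differed little between the libraries. Over all cells it stood at 219 CPM (2910 UMIs) and 196 CPM (1344 UMIs), and the ratio was 0.90 (0.84 to 0.96). In smooth muscle it stood at 236 and 196 CPM, a ratio of 0.83 (0.77 to 0.89), short of the 1.5-fold rule, and it was lower in the double knockout in 10 of 11 clusters and called in 2. By depth its smooth muscle ratio was 1.02 (0.59 to 1.93) under 1000 UMIs, 0.78 (0.60 to 1.03) and 0.71 (0.60 to 0.85) in the next 2 bins, and 1.18 (0.99 to 1.39) at 4000 to 8000, so its direction was not the same in these 4 bins.

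Tgfb2 differed widely between clusters. In the Apoe-/- library cluster 17 stood at 440 CPM (216 UMIs), and none of the other 17 clusters reached it within counting error. Smooth muscle cluster 0 followed at 330 CPM, and cluster 13 was lowest at 50.9 CPM, a top to bottom ratio of 8.64 (6.22 to 12.2). In the double knockout the highest were cluster 10 at 289 CPM (20 UMIs) and cluster 17 at 270 CPM (56 UMIs), and 13 of the other 18 clusters did not differ from the top.

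The share of each ligand among the UMIs of all 3 ligand genes uses no scaling to library size. In smooth muscle Tgfb1 made up 3.72% (3.06 to 4.47) of 2933 ligand UMIs in the Apoe-/- library and 17.5% (15.7 to 19.4) of 1663 in the double knockout. The Tgfb3 share was 27.3% and 18.0%, and the Tgfb2 share 68.9% and 64.5%. The odds of Tgfb1 against Tgfb3 were 7.15-fold higher (5.50 to 9.35) in the double knockout, and 4.80-fold higher (3.94 to 5.85) over all cells. In cluster 14 the Tgfb1 share was 6.51% (3.29 to 11.3) and 48.8% (33.3 to 64.5). These shares compare the same genes between libraries and do not rank the ligands, since capture differs between genes.

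**Figure D3:**
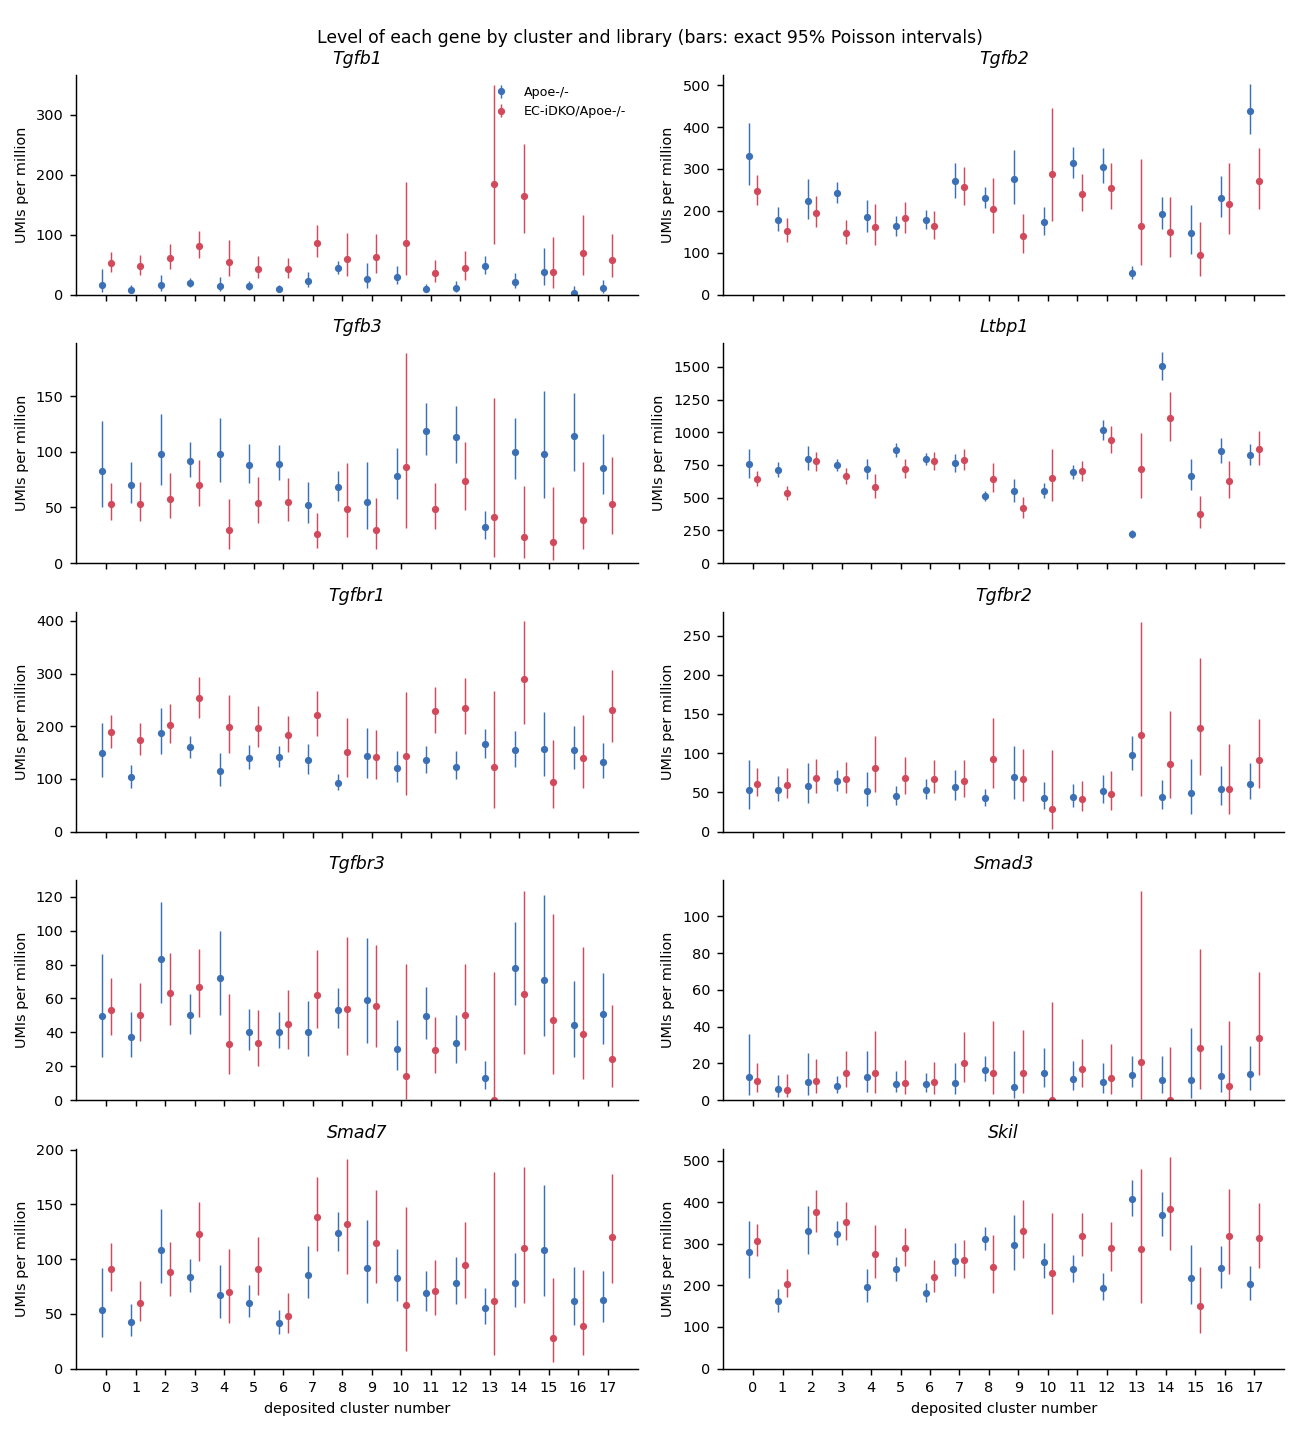
Level (CPM) of each of the 10 genes in the 18 deposited clusters with at least 50 cells in both libraries, on linear axes that start at 0. Blue points are the Apoe-/- and red points the double knockout library, and bars are exact 95% Poisson intervals. Tgfb1 is higher in the double knockout in 17 of the 18 clusters, and Tgfb3 is lower in 16.

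Ltbp1 encodes latent TGF-beta binding protein, which anchors the latent ligand in the matrix, and lies on chromosome 17 from 75005568 to 75392512, forward strand. Over all cells it stood at 731 CPM (9732 UMIs) and 683 CPM (4684 UMIs), and the ratio was 0.93 (0.90 to 0.97). In smooth muscle it stood at 796 and 699 CPM, a ratio of 0.88 (0.84 to 0.91), and none of the 11 smooth muscle clusters was called. Its order of clusters began the same way in both libraries: cluster 14 stood highest at 1504 and 1106 CPM, and cluster 12 second at 1017 and 938 CPM. The lowest was cluster 13 in the Apoe-/- library, at 222 CPM, and cluster 19 in the double knockout, at 126 CPM.

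Among the receptors, the type I receptor gene Tgfbr1 was the one that differed most. It lies on chromosome 4 from 47353222 to 47414931, forward strand. Over all cells it stood at 135 CPM (1796 UMIs) and 198 CPM (1354 UMIs), and the ratio was 1.46 (1.36 to 1.57). In smooth muscle it stood at 139 and 204 CPM, a ratio of 1.47 (1.35 to 1.59), just under the 1.5-fold rule. It was higher in the double knockout in 10 of 11 smooth muscle clusters and called in 6, with ratios from 0.90 to 1.89.

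The Tgfbr1 call turned on depth. The ratio in smooth muscle was 1.01 (0.57 to 1.96) in cells under 1000 UMIs, 1.17 (0.87 to 1.60) at 1000 to 2000, 1.42 (1.18 to 1.71) at 2000 to 4000 and 1.62 (1.34 to 1.94) at 4000 to 8000. Among cells of 1000 UMIs or more whose mitochondrial share lay under 10% it was 1.58 (1.43 to 1.73), which made Tgfbr1 called. The highest Apoe-/- level was 186 CPM in smooth muscle cluster 2, from which 11 of the other 17 clusters did not differ.

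The type II receptor gene Tgfbr2, which binds the ligand first, lies on chromosome 9 from 116084293 to 116175360, reverse strand. It stood at 53.2 CPM (456 UMIs) and 64.0 CPM (351 UMIs) in smooth muscle, a ratio of 1.20 (1.04 to 1.38), and none of the 11 smooth muscle clusters was called. Its highest Apoe-/- level was in cluster 13, at 98.3 CPM (85 UMIs). In smooth muscle the count of Tgfbr1 per Tgfbr2 UMI was 2.62 in the Apoe-/- and 3.19 in the double knockout, an odds ratio of 1.22 (1.04 to 1.44).

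Tgfbr3 encodes betaglycan, a co-receptor that presents ligand, above all that of Tgfb2, to the type II receptor. It lies on chromosome 5 from 107106570 to 107289629, reverse strand. It stood at 47.2 CPM (404 UMIs) and 47.6 CPM (261 UMIs) in smooth muscle, a ratio of 1.01 (0.86 to 1.18). Within the 4 depth bins under 8000 UMIs the ratio was below 1 each time: 0.30 (0.16 to 0.62) under 1000 UMIs, 0.83 (0.50 to 1.45) at 1000 to 2000, 0.73 (0.53 to 1.02) at 2000 to 4000 and 0.67 (0.43 to 1.02) at 4000 to 8000. The interval held 1 in all but the shallowest of these bins. Cluster 13 had the least, with 12.7 CPM (11 UMIs) in the Apoe-/- library and 0 UMIs in the double knockout. The exact interval of the latter reached 75.6 CPM. The 2 receptor genes Tgfbr2 and Tgfbr3 thus had opposite ends of their Apoe-/- order at cluster 13.

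Smad3, the signal carrier, was the most sparsely counted of the 10 genes and lies on chromosome 9 from 63646767 to 63757994, reverse strand. In smooth muscle it stood at 9.69 CPM (83 UMIs) and 11.7 CPM (64 UMIs), a ratio of 1.20 (0.86 to 1.69). The counts are too few to show a difference of that size. In the Apoe-/- library 15 of the other 17 clusters did not differ from the highest, cluster 8 at 16.3 CPM.

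The feedback genes had pooled ratios above 1 in smooth muscle without being called, and their direction depended on depth. Smad7, on chromosome 18, encodes the inhibitory Smad that blocks the type I receptor. It stood at 64.6 CPM (553 UMIs) and 84.8 CPM (465 UMIs) in smooth muscle, a ratio of 1.31 (1.16 to 1.49), and was higher in 9 of 11 clusters and called in 2. Skil encodes SnoN, a repressor of Smad-driven transcription, and lies on chromosome 3 from 31095058 to 31122577, forward strand. It stood at 236 CPM (2023 UMIs) and 295 CPM (1620 UMIs), a ratio of 1.25 (1.17 to 1.34), and was higher in 11 of 11 clusters and called in 1. With cells thinned to 1000 UMIs the Skil ratio was 1.12 (0.98 to 1.29). From the shallowest bin to that of 4000 to 8000 UMIs the Skil ratios were 0.71 (0.49 to 1.07), 0.97 (0.77 to 1.23), 0.86 (0.75 to 0.99) and 1.35 (1.15 to 1.58). The Smad7 ratios were 0.94 (0.42 to 2.61), 0.76 (0.50 to 1.19), 0.95 (0.73 to 1.24) and 1.76 (1.31 to 2.35). Of these 4 bins, the one of 4000 to 8000 UMIs was alone in having ratios above 1 for both genes.

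Skil was highest in cluster 13 in the Apoe-/- library, at 408 CPM (353 UMIs), followed by cluster 14 at 369 CPM. In the double knockout it was highest in cluster 19, at 553 CPM (57 UMIs), from which 1 of the other 18 clusters did not differ. Smad7 was highest in cluster 8 in the Apoe-/- library, at 124 CPM (191 UMIs), and in cluster 19 in the double knockout, at 165 CPM (17 UMIs).

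**Figure D4:**
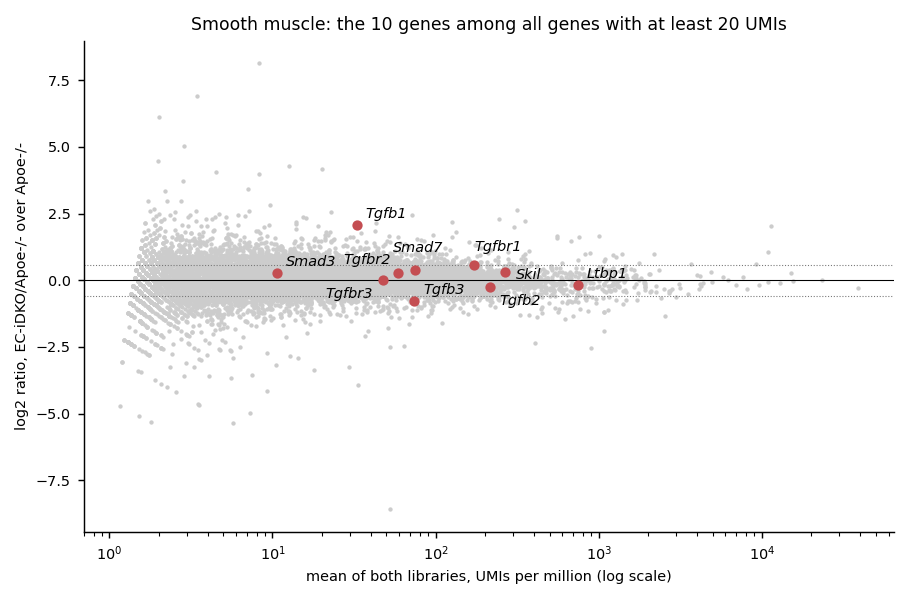
Log2 of the double knockout to Apoe-/- ratio in smooth muscle against the mean level of both libraries on a log axis, for all 11941 genes with at least 20 UMIs (grey) and the 10 genes (red). Ratios have 0.5 UMIs added to each count, dotted lines mark 1.5-fold, and no error bars are drawn. Tgfb1 lies at 2.06, Tgfb3 at -0.78 and the other 8 genes between -0.27 and 0.55.

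In the endothelial cells of cluster 9 (96 and 287 cells of the EC class), Tgfb1 was called higher and Tgfb2 lower, out of 9 genes with at least 20 UMIs. The rule called 7.2% of 4109 genes higher there and 8.79% lower. The 12 endothelial markers summed to 3326 and 5686 CPM, and 1 of them was at 0 in the Apoe-/- cells. The same cells held 31852 and 30135 CPM of contractile smooth muscle markers, so the population is not endothelial RNA alone.

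Tgfb2 stood at 281 CPM (75 UMIs) in the Apoe-/- and 147 CPM (37 UMIs) in the double knockout cells of cluster 9, a ratio of 0.52 (0.34 to 0.79). Tgfb1 stood at 26.2 CPM (7 UMIs) and 67.6 CPM (17 UMIs), a ratio of 2.58 (1.02 to 7.35), whose lower end is close to 1. Both calls were lost when each cell was thinned to 1000 UMIs, which left 94 and 59 cells. Both were also lost among cells of 1000 UMIs or more with a mitochondrial share under 10%, where Tgfb1 had a ratio of 2.03 (0.51 to 7.45) and Tgfb2 0.62 (0.33 to 1.07). Skil at 1.59 (1.07 to 2.34) and Ltbp1 at 0.51 (0.32 to 0.78) were called there in their place. The Tgfb2 call was lost over the whole EC class, and the Tgfb1 call over all cells of cluster 9, of any class, at 2.45 (0.96 to 6.98).

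The receptors were close to even in cluster 9. Tgfbr1 stood at 142 and 135 CPM, a ratio of 0.95 (0.58 to 1.55). Tgfbr2 stood at 71.2 and 67.6 CPM, a ratio of 0.95 (0.46 to 1.93), and Tgfbr3 at 59.9 and 51.7 CPM, a ratio of 0.86 (0.38 to 1.91). These intervals allow differences of about the size seen in smooth muscle, and whether the Tgfbr1 ratio differs between the 2 populations was not tested. Ltbp1 stood at 543 and 401 CPM (0.74, 0.57 to 0.96), Skil at 296 and 330 CPM (1.11, 0.81 to 1.54) and Smad7 at 93.6 and 119 CPM (1.27, 0.72 to 2.26), none of them called. Macrophage markers summed to 2345 and 51.7 CPM and fibroblast markers to 2015 and 393 CPM in these cells, and their part in these values was not tested.

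The macrophage-marked cluster 13 (144 and 53 cells) had Tgfb1, Tgfb2 and Ltbp1 called higher and none lower out of 8 genes, where the rule called 8.33% of 5537 genes higher and 6.1% lower. Tgfb2 stood at 50.9 CPM (44 UMIs) and 164 CPM (8 UMIs), a ratio of 3.22 (1.31 to 6.92). Ltbp1 stood at 222 CPM (192 UMIs) and 717 CPM (35 UMIs), a ratio of 3.23 (2.19 to 4.65), and Tgfb1 had a ratio of 3.89 (1.66 to 8.12). The makeup of the cluster differed between libraries: macrophage markers summed to 22589 and 5777 CPM, with Adgre1 at 0 in the double knockout, and contractile smooth muscle markers to 13447 and 37671 CPM. The part of that shift in the result was not tested.

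In cluster 14 Tgfb1 and Tgfbr1 were called higher and Tgfb3 lower, out of 9 genes with at least 20 UMIs. The rule called 6.56% and 5.82% of 4969 genes there. Tgfbr1 stood there at 154 and 290 CPM, and the ratio was 1.89 (1.24 to 2.81). In cluster 7 of the modEC class Tgfb1, Tgfbr1 and Smad7 were called higher and Tgfb3 lower, out of 9 genes (6.72% and 7.19% of 6443 genes). In cluster 8 Tgfbr1 and Tgfbr2 were called higher and none lower, out of 10 genes (7.98% and 5.38% of 7943 genes). In cluster 10 none of the 8 genes with at least 20 UMIs was called (7.44% higher and 4.74% lower of 4449 genes). Its double knockout side held 94 cells, and the Tgfb1 ratio of 2.90 had an interval from 0.94 to 7.62. In the adipocyte-marked cluster 15 Tgfbr2 was called higher and Tgfb3, Ltbp1 and Smad7 lower, out of 7 genes (14.3% and 22.7% of 2450 genes). Of these, Tgfb3 and Smad7 rested on 2 and 3 UMIs in the double knockout. The Tgfbr2 ratio there was 2.69 (1.09 to 7.05) and the Ltbp1 ratio 0.56 (0.38 to 0.81).

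The makeup of these clusters also differed between the libraries. Pericyte markers of cluster 14 summed to 4476 and 2103 CPM and its endothelial markers to 128 and 298. In cluster 8 chondrocyte markers summed to 7281 and 239 CPM, modulated smooth muscle markers to 30911 and 15421 and fibroblast markers to 15235 and 5464. In cluster 10 chondrocyte markers summed to 25994 and 101 CPM, in cluster 15 adipocyte markers to 353 and 56472, and in cluster 7 fibroblast markers to 1395 and 305 and cycling markers to 342 and 24.1. The part of these differences in the calls was not tested.

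The rest of the pathway was read in smooth muscle from 5 lists. Of 23 genes of latency and activation with at least 20 UMIs, 6 were called lower and 1 higher, where the rule called 7.67% of all smooth muscle genes lower and 9.87% higher. The median log2 ratio was -0.17 against 0.03 over all genes. Fmod, a matrix proteoglycan that binds TGF-beta, had 96 UMIs in the Apoe-/- and 1 in the double knockout, a ratio of 0.016 (0.00041 to 0.093). Dcn, decorin, stood at 108 and 19.5 CPM, a ratio of 0.18 (0.15 to 0.22), and the microfibril gene Mfap2 at 6.07 and 0.91 CPM, a ratio of 0.15 (0.05 to 0.37). Plat, the tissue plasminogen activator, stood at 36.1 and 76.8 CPM, a ratio of 2.13 (1.83 to 2.47). Dcn is also a fibroblast marker, and the 10 fibroblast markers summed to 223 and 65.1 CPM in these cells and the chondrocyte markers to 285 and 91.4 CPM. Their part in the result was not tested.

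Co-receptors, other Smads and carriers were counted in the same way. Of 6 genes listed with the co-receptors, not all of which act only as co-receptors, 1 was called lower and none higher. The rule called 7.67% and 9.87% of all genes, and the list's median log2 ratio was -0.33. The one called was Cd44, a hyaluronan receptor, with a ratio of 0.58 (0.45 to 0.73). The others of largest size were not called, with Acvrl1 (ALK1) at 0.70 (0.55 to 0.88), the pseudoreceptor gene Bambi at 0.71 (0.57 to 0.89) and Cd109 at 1.40 (1.20 to 1.63). Of 10 other Smads and carriers, 1 was called each way, against the same shares of all genes, with a median of -0.11. Smad1, a carrier of BMP signals, had a ratio of 0.66 (0.56 to 0.77), and Strap, a receptor-associated protein gene, 1.51 (1.25 to 1.83).

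Of 13 feedback and repressor genes, 3 were called higher and none lower, against 9.87% and 7.67% of all genes. The list's median log2 ratio was -0.04. Klf10, a TGF-beta-inducible zinc finger gene, stood at 18.3 CPM (157 UMIs) and 66.2 CPM (363 UMIs), a ratio of 3.61 (2.99 to 4.38). The Smad co-repressor genes Tgif1 and Tgif2 had ratios of 2.36 (1.82 to 3.07) and 6.25 (2.82 to 15.7), the latter on 8 and 32 UMIs. The next in size, the ubiquitin ligase gene Nedd4l, was not called at 0.72 (0.48 to 1.05).

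Target genes of the pathway went both ways. Of 28 with at least 20 UMIs, 3 were called in each direction, against 9.87% and 7.67% of all genes, and the median log2 ratio was 0.04. Junb, also an immediate early gene, stood at 276 and 835 CPM, a ratio of 3.02 (2.88 to 3.18). Id3, which BMP signals induce as well, had a ratio of 2.01 (1.93 to 2.08), and the protease inhibitor gene Timp1 1.98 (1.63 to 2.43). Eln, elastin, stood at 1589 and 956 CPM, a ratio of 0.60 (0.58 to 0.62). Timp1 is also on the list of modulated smooth muscle markers.

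**Figure D5:**
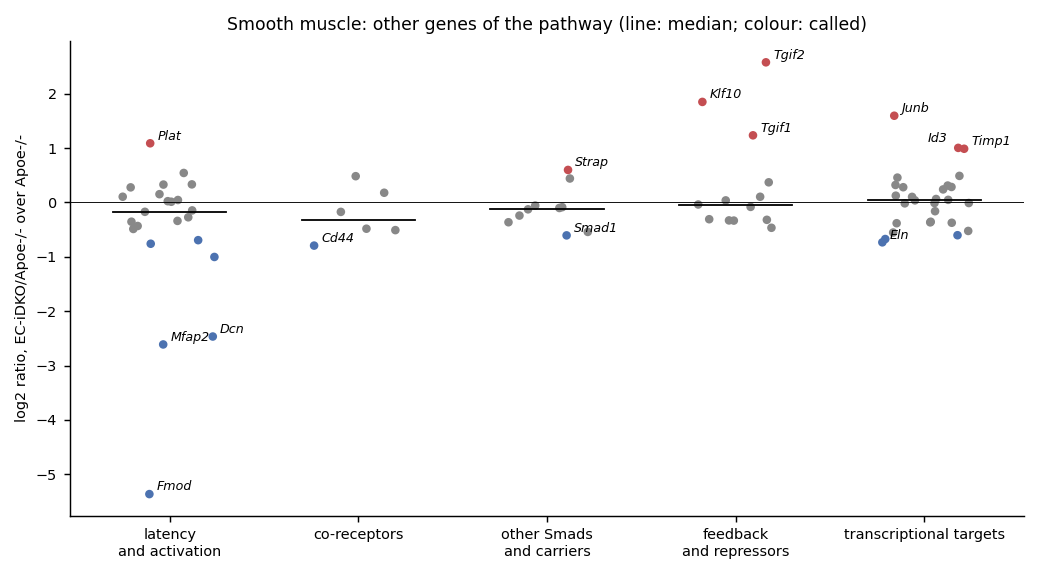
Log2 of the double knockout to Apoe-/- ratio in smooth muscle for the other genes of the pathway with at least 20 UMIs, in 5 lists, with 0.5 UMIs added to each count. Each point is a gene, placed at random across its column, with called genes in red (higher) and blue (lower), and black lines are list medians, between -0.33 and 0.04. Klf10, Tgif2 and Junb lie highest and Fmod lowest.

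In cluster 9, 6 of 25 targets were called higher and 7 lower, against 7.2% and 8.79% of all genes there, and the median log2 ratio was -0.23 against -0.02 over all genes. Col1a1, Col1a2 and Col3a1, the fibrillar collagens, had ratios of 0.18 (0.13 to 0.23), 0.39 (0.31 to 0.48) and 0.32 (0.25 to 0.40), and Timp1 3.54 (1.64 to 8.47). Of 19 latency and activation genes 4 were called lower and 1 higher, and of 8 feedback genes none was called. Fibroblast markers were lower in the same cells, as given above.

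The genes whose level ran most like each of the 10 over the 21 clusters, both libraries summed, were found among 6992 genes with at least 300 UMIs by the Pearson correlation of log2(CPM + 10). The clusters share libraries and depth, so r is a description. Tgfb1 ran most like Kdm6b (r = 0.93), Kdm2a (0.92) and Rara (0.92). In the Apoe-/- and the double knockout library alone the values were 0.89 and 0.52 for Kdm6b, 0.81 and 0.19 for Kdm2a, and 0.87 and 0.72 for Rara. Tgfb2 ran most like Gata6 (0.89), Sulf1 (0.88) and Sdc2 (0.88), and Tgfb3 like Kank1 (0.94), Fam114a1 (0.94) and Mark1 (0.93). Ltbp1 had the closest partners, Nudt4 (0.96), Lbh (0.95) and Pde5a (0.94). The single-library values were 0.95 and 0.44 for Gata6, 0.96 and 0.74 for Kank1, and 0.93 and 0.76 for Nudt4.

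For the receptors the closest were Atp6v1a for Tgfbr1 (0.88), Il7r for Tgfbr2 (0.85) and Irs1 for Tgfbr3 (0.87). In the Apoe-/- and the double knockout library alone these were 0.77 and 0.69, 0.72 and 0.27, and 0.40 and 0.60. For the feedback genes the closest were Tra2b for Smad7 (0.89, with 0.49 and 0.52 in the single libraries) and Gramd1a for Skil (0.91, with 0.76 and 0.60). Smad3 had too few UMIs for this search. Among the 10 genes themselves, Tgfb1 and Skil ran together over the 21 clusters (r = 0.85, 0.82 in the Apoe-/- and 0.57 in the double knockout library alone), while Tgfb1 and Tgfb3 ran in opposite directions (-0.69, -0.64 and -0.45).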

How the data were processed

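Single-cell 3′ libraries of 2 genotypes, 1 each, were analysed. The deposited table holds counts, UMIs per cell and gene; per the submitters' processing notes Cell Ranger, Seurat and mm10 were used; the sources used here name no versions. The deposited mitochondrial value per cell is a fraction, and the deposited classes and cluster numbers are the authors' own names for the cells. The protocol names CD31 microbeads, while the label gives all cells. Doublet removal is not stated in the sources used here, and no doublet caller was run. Of 10345 deposited entries, 4856 held each of 2428 Apoe-/- barcodes in 2 identical copies, and each barcode was counted once.

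UMIs were summed per population and scaled to a total of 1000000 (CPM). Ratios carry exact conditional binomial, levels exact Poisson and shares Clopper-Pearson 95% intervals (Python 3.11.15, NumPy 2.4.6, SciPy 1.17.1, pandas 2.3.3). Cells are not replicates, so no test was made. This call rule was also run on counts simulated from the pooled smooth muscle profile at the observed totals. Such counts hold counting error but no variation between libraries of a genotype, so they cannot stand in for replicates. Log2 ratios in medians and plots were taken with 0.5 UMIs added to each count. All 10 genes are named; of each pathway list up to 4 genes with the largest log2 ratio are named, and for likeness the 3 genes of highest correlation. The targeted genes and Ttll5 were added beside a result. The members and lists were chosen with earlier results of these data known. Coordinates are from the GENCODE annotation of GRCm38, and promoter sequences from RefSeq. Alternatives changed the cells kept, the depth, the scaling, the fold and the population.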

Additional observations from a re-analysis of the deposited data

Results flagged for a closer look

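Tgfb2 differed in opposite directions in 2 populations. The double knockout to Apoe-/- ratio was 3.22 in the macrophage-marked cluster 13, on 44 and 8 UMIs, and 0.52 in the endothelial cells of cluster 9, on 75 and 37 UMIs. In cluster 13 macrophage markers summed to 22589 CPM in the Apoe-/- and 5777 CPM in the double knockout library. Contractile smooth muscle markers summed to 13447 and 37671 CPM there, and the part of these shifts in the Tgfb2 ratio was not tested. In cluster 9 the ratio stayed below 1 under all 6 alternatives, from 0.48 to 0.71. The call was lost in thinned cells, at 0.55 (0.24 to 1.16), and over the whole EC class, at 0.71 (0.50 to 1.01). With 1 library per genotype each side rests on 1 sample, and the difference between the ratios of the 2 clusters was not tested.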

How the results depend on the processing

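No called gene changed direction under any alternative that was run, while some uncalled ratios crossed 1, such as Tgfbr3 (0.83 to 1.04) and Smad3 (0.81 to 1.80) in smooth muscle. Of the ratios of the 10 genes, 60 of 70 stayed within the counting interval of the reported ratio over all cells, 58 of 70 in smooth muscle and 58 of 60 in cluster 9. Tgfb1 ranged from 2.59 to 3.30 over all cells and from 3.68 to 4.42 in smooth muscle, and Tgfb3 from 0.56 to 0.78 in smooth muscle. Keeping cells of 1000 UMIs or more with a mitochondrial share under 10% gave 2 genes called higher over all cells and 2 in smooth muscle, in place of 1. In cluster 9 the counts stayed at 1 and 1 but the genes differed, with Skil (1.59) and Ltbp1 (0.51) called in place of Tgfb1 and Tgfb2. Cells thinned to 1000 UMIs gave 0 called lower over all cells, 2 higher and 0 lower in smooth muscle, and 0 higher and 0 lower in cluster 9. A 2-fold rule gave 0 called lower in each of the 3 populations. The whole EC class gave 0 called lower. Smooth muscle cells with at least 3000 UMIs, a setting chosen after seeing the data, gave 3 called higher. With both libraries summed over 21 clusters, a gene's highest cluster was also highest in the Apoe-/- library alone for Tgfb2, Ltbp1 and Tgfbr1. In the double knockout alone this held for Ltbp1. The single-library orders had 18 clusters in the Apoe-/- and 19 in the double knockout, those with at least 50 cells. The median correlation of the closest genes was 0.89 with both libraries, 0.80 in the Apoe-/- and 0.60 in the double knockout library alone. Beyond the fewer cells or UMIs that these settings use, the cause was not tested. No paired analysis was possible because there was 1 library per genotype, and no library could be left out. The depth of the double knockout limits values in small clusters.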
